A study of Mus musculus with 12 samples.

Results

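The genes described here are the chaperones whose symbols begin with Hspa, Hspb, Hspd, Hspe, Hsph, Hsp90, Dnaja, Dnajb or Dnajc, or with Cct2 to Cct8, with Hspa5 set aside. The rule took 82 of the 32699 genes in the deposited files by name alone, without any measured value. It also took Hspbp1 and Hspbap1, which share only the start of the name with the Hspb family. Of the 82, 53 passed the filter on low values (a CPM, the count scaled to library size, of over 10 in at least 2 of the 12 libraries) and were tested, and 29 did not pass.

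The cells were G1E-ER4, a line of mouse erythroid progenitors. The line has GATA-1, the master transcription factor of red cells, in a fusion with the ligand-binding part of the estrogen receptor, so that estradiol starts red cell differentiation. Each of 4 groups had 3 libraries. The Ctrl group was untreated, the TMG group received Thiamet G at 10 µM, the E2 group received estradiol at 1 µM, and the TMG_E2 group received both drugs, with exposure for 30 h. Thiamet G blocks OGA, the enzyme that takes the sugar O-GlcNAc off proteins, and the study asked whether a disturbed O-GlcNAc balance alters the erythroid transcription programme during differentiation. All groups carried the fusion and were grown in the same medium at passages 35 to 40, and no group lacking the fusion was given E2. The labels do not say that the 3 libraries of a group came from separate cultures, so the p-values rest on a spread that may be technical.

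Chaperones bind unfolded or partly folded proteins and let them go in cycles of ATP hydrolysis. In the cytosol, J-domain proteins of the DNAJ families bring clients to Hsp70, exchange factors of the Hsp110 type release them, and Hsp90 or the CCT ring, which folds actin and tubulin, takes over part of them. Mitochondria hold their own Hsp70 and the Hsp60 and Hsp10 chamber, and the endoplasmic reticulum has its own Hsp90 and J proteins. In erythroid cells Hsp70 is known for guarding GATA-1 from cleavage by caspases.

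Total expected counts ran from 17589380 to 23178721 per library, and 3 counts corresponded to 0.133 to 0.180 CPM, which is scaled by TMM throughout. The 6 erythroid markers all passed the filter, and their summed level was 1280 to 1300 CPM in Ctrl and 6260 to 6590 CPM in E2. The labels call the cells embryonic stem cells, but none of 5 markers of those cells passed, Pou5f1, Sox2 and Zfp42 were at 0 and the highest, Nanog, reached 0.281 CPM. Of 4 mast cell markers 3 passed, and their summed level of 76.8 to 100.0 CPM in Ctrl and 77.4 to 93.9 CPM in TMG stood against 0.28 to 0.91 CPM in E2 and 0.321 to 0.599 CPM in TMG_E2, with Mcpt8 at 0. The summed megakaryocyte markers reached at most 16.6 CPM, the lymphoid ones 1.22 CPM and the granulocyte and macrophage ones 0.0467 CPM. The part of the mast cell markers in the changes with E2 was not tested. In bulk RNA, fewer cells of a type and less RNA per cell cannot be told apart. The 3 TMG_E2 libraries differed more from each other (chi-square per degree of freedom 6.78 to 10.2) than those of any other group (2.17 to 3.44).

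The untreated cells held large amounts of a few chaperone RNAs and almost none of the inducible Hsp70 genes Hspa1a and Hspa1b. Other stress-responsive members, such as Hsp90aa1, were abundant. Over all 82 genes the deposited TPM (a length-scaled share of all transcripts) summed to 16980 ± 214 (SD, n = 3) in Ctrl. Hsp90ab1, Hspa8 and Hsp90aa1, the cytosolic Hsp90 isoforms and the constitutive cytosolic Hsp70, made up 47.1% of that sum. Hsp90ab1 stood at 2899, 2954 and 2941 TPM in the 3 Ctrl libraries and Hspa8 at 2815, 2772 and 2966 TPM. These levels overlapped, so the 2 leading genes were not separated by the spread. Hsp90aa1 followed at 2209 ± 21.0 TPM, Hspd1 at 1250 ± 24.8 TPM and Hspe1 at 1134 ± 22.4 TPM (SD, n = 3), each apart from its neighbours in every Ctrl library.

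**Figure D1:**
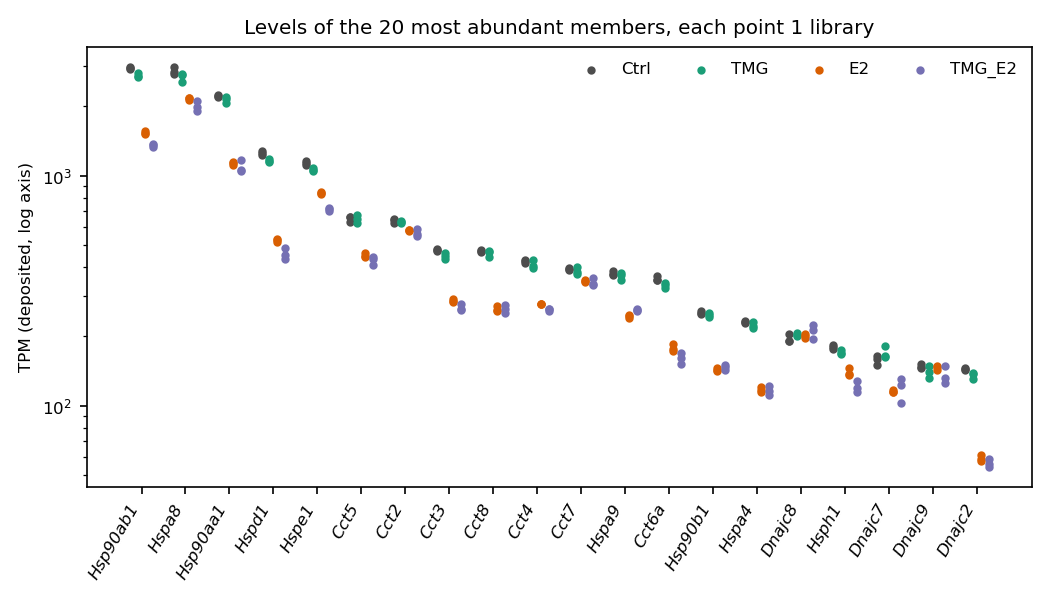
Deposited TPM on a log axis for the 20 chaperone genes with the highest mean TPM in Ctrl, ordered by that mean, with each point 1 library and the 4 groups in colour. By mean TPM Hsp90ab1 leads in Ctrl, where its libraries overlap those of Hspa8, and Hspa8 leads in E2. Hspd1 drops below Hspe1 in the libraries with E2.

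The inducible Hsp70 genes Hspa1a and Hspa1b were near the detection limit, as were the small heat shock proteins other than Hspb6 and Hspb11. Hspa1a, a gene almost identical to Hspa1b whose reads RSEM divides between them, had 1.5 counts over all 12 libraries and Hspa1b had 54.96. Hspb1, the best known small heat shock protein, had 16 counts in all, from 0 to 4 per library. Counts of 0 in every library were found for 8 of the 82 genes, among them Hspb2, Hspb7 and Hspb8, and a further 13 had fewer than 100 counts in all. No small heat shock protein gene passed the filter. Hspb11, which despite its symbol encodes a part of the cilium transport machinery, came closest with 7.69 ± 0.23 CPM in Ctrl and 9.87 ± 1.29 CPM in E2 (SD, n = 3). Of the 53 genes tested, 48 were over 10 CPM in all 12 libraries and 1, Dnajb4, passed only through libraries with E2.

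With E2, 16 of the 20 tested HSP and CCT genes fell, and more J-protein genes rose than fell. Of the 53 genes tested, 20 rose and 26 fell in E2 against Ctrl (edgeR quasi-likelihood test, Benjamini-Hochberg adjusted p under 0.05), against 41.5% of all 8273 genes that rose and 41.2% that fell, or 82.7% called in either direction. The share called, 86.8%, was near that background. Changes of single genes are given as log2 fold changes ± SE and levels as means ± SD of 3 libraries. With libraries scaled by size alone, which moved the median change of all genes by about -0.10 on the log2 scale, the split was 15 higher and 31 lower. Of the 20 HSP and CCT genes 1 rose, and their median log2 fold change was -0.49. Of the 31 DNAJ genes, 19 rose and 8 fell, with a median of 0.18, beside a median of -0.000765 over all genes. With scaling by library size alone the HSP and CCT genes gave 1 higher and 18 lower, and the DNAJ genes 14 higher and 11 lower with a median of 0.08. Dnajb4 reached the filter only through libraries with E2, so it had to differ, and without it 19 of 52 genes and 18 of 30 DNAJ genes rose. Summed over the 82 genes, the level went from 22770 ± 357 to 16640 ± 38.2 CPM (SD, n = 3), 73.1% of Ctrl. The sum of the DNAJB genes went the other way, from 294 ± 2.16 to 419 ± 2.59 CPM. Summed over all DNAJ genes, CPM went from 2437 ± 37.0 to 2596 ± 25.9, while TPM, a share of all transcripts, went from 1831 ± 23 to 1706 ± 4.91.

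**Figure D2:**
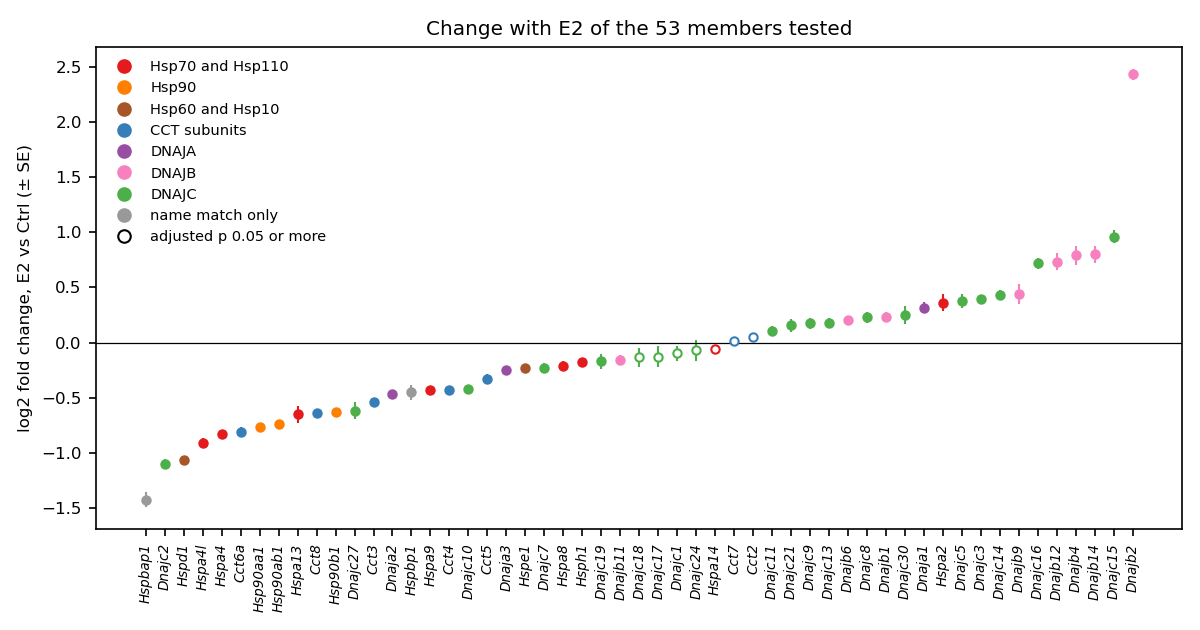
Log2 fold change in E2 against Ctrl (points, with the SE as bars) of the 53 genes tested, ordered by size and coloured by family, with open points for adjusted p of 0.05 or more. Dnajb2 stands alone at 2.43 at the high end, Hspbap1 lies lowest at -1.43, and nearly all HSP and CCT genes lie below 0.

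All 3 Hsp90 genes fell with E2, beside 41.2% of all genes. Hsp90ab1 (GRCm38 chromosome 17, 45567778 to 45573261) was at 4283, 4426 and 4367 CPM in Ctrl and at 2629, 2619 and 2584 CPM in E2. The groups lay far apart, and the log2 fold change was -0.74 ± 0.03 (SE, edgeR adjusted p = 1.69e-12). Hsp90aa1, the stress-responsive isoform, was at 3708, 3797 and 3798 CPM in Ctrl and at 2225, 2185 and 2217 CPM in E2. It fell by nearly the same amount (-0.77 ± 0.04, adjusted p = 4.55e-12), and the ratio of Hsp90ab1 to Hsp90aa1 in TPM was 1.33 ± 0.01 in Ctrl and 1.36 ± 0.02 in E2 (SD, n = 3). Hsp90b1, the Hsp90 of the endoplasmic reticulum, went from 417 ± 5.28 to 269 ± 5.51 CPM (log2 fold change -0.63 ± 0.04, adjusted p = 1.89e-11). The summed Hsp90 level was 59.6% of Ctrl.

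In the Hsp70 family 6 of 8 tested genes fell and 1 rose, beside 41.2% and 41.5% of all genes. The exchange factors differed widely among themselves. Hspa8 (chromosome 9, 40801276 to 40805202) was at 3401, 3388 and 3599 CPM in Ctrl and at 2979, 2988 and 3013 CPM in E2. The E2 libraries were all lower, by a log2 fold change of -0.21 ± 0.04 (adjusted p = 0.000237), and in TPM Hspa8 became the leading chaperone gene with 2160 ± 15.7 beside 1536 ± 21.2 for Hsp90ab1. Hspa4, an Hsp110-type exchange factor, was at 622.3, 642.9 and 641.8 CPM in Ctrl and at 356.7, 351.9 and 366.1 CPM in E2, and its relative Hspa4l went from 60.6 ± 0.52 to 32.2 ± 0.57 CPM. Both fell, Hspa4 with -0.83 ± 0.04 (adjusted p = 6.17e-13) and Hspa4l with -0.91 ± 0.04 (adjusted p = 1.36e-12). Hsph1, the stress-inducible Hsp110, fell less, with -0.17 ± 0.03 (adjusted p = 0.000157), from 383 ± 7.73 to 339 ± 10.2 CPM. The TPM ratio of Hsph1 to Hspa4 was 0.778 ± 0.006 in Ctrl and 1.19 ± 0.05 in E2. Hspa9, the mitochondrial Hsp70, fell with a log2 fold change of -0.43 ± 0.04 (adjusted p = 1.78e-08). Hspa2 was the only Hsp70 gene to rise (0.36 ± 0.08, adjusted p = 0.000328), at a low level of 14.5 ± 0.60 against 18.6 ± 0.94 CPM. Hspa14, which works at the ribosome, gave -0.06 ± 0.03 (adjusted p = 0.133).

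Hspd1 and Hspe1, which encode the Hsp60 barrel and Hsp10 lid of the mitochondrial folding chamber, are neighbours on chromosome 1 that are read in opposite directions from a shared stretch. In RefSeq on GRCm38, Hspe1 (55088148 to 55091317, plus strand) begins at 55088148, and Hspd1 (55077833 to 55088243, minus strand) has starts at 55087932 and 55088243. The 215 bases between 55087932 and 55088148 are shown because both members share them and because they hold a heat shock element triplet. They are given for the plus strand at chr1:55087933-55088147 with the overlapping triplet in capitals.
Hspd1 and Hspe1: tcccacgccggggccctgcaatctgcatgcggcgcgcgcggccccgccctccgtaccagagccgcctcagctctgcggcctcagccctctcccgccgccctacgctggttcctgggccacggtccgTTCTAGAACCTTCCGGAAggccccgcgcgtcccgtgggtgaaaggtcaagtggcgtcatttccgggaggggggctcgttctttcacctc
The triplet was searched as GAA, TTC and GAA, or TTC, GAA and TTC, with 2 bases of any kind between units, on both strands from 250 bases before to 50 after each start, and 0.603% of 32851 RefSeq windows held it. Among the 86 windows of 67 matched chaperone genes 6 held it, for Dnajb6, Hspd1, Hspe1 and Hsph1. These 6 windows are not separate sites. Hspd1 and Hspe1 share theirs, and Dnajb6 and Hsph1 each have 1 site that overlapping windows count again. Of these 4 genes, Dnajb6 rose with E2 and the other 3 fell, beside 41.5% of all genes that rose and 41.2% that fell. A match in letters is a description and not a bound site.

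Hspd1 and Hspe1 did not change equally with E2. Hspd1 was at 1676, 1729 and 1752 CPM in Ctrl and at 816.0, 811.1 and 832.8 CPM in E2. The groups were far apart and the fall was 2.1-fold (log2 fold change -1.07 ± 0.04, adjusted p = 5.02e-14). Hspe1 was at 414.1, 435.5 and 427.4 CPM in Ctrl and at 360.8, 368.4 and 357.8 CPM in E2. It fell with a log2 fold change of -0.23 ± 0.04 (adjusted p = 1.58e-05), again with no overlap, as for 85.9% of all genes tested. The TPM ratio of Hspd1 to Hspe1 was 1.11, 1.08 and 1.12 in Ctrl and 0.621, 0.604 and 0.636 in E2, so that Hspd1 exceeded Hspe1 in each Ctrl library and was below it in each E2 library. With 3 libraries against 3 an exact permutation test of such a ratio cannot go below a 2-sided p of 0.1, so the ratios are given as descriptions. The genes overlap on opposite strands at their starts, and no source used here states whether reads were counted by strand.

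The subunits of the CCT ring, which are built into 1 complex, diverged with E2. Of the 7 tested, 5 fell, beside 41.2% of all genes, and 2, Cct2 and Cct7, did not pass the test. Cct6a (chromosome 5, 129787356 to 129846443) was at 443.5, 451.5 and 464.2 CPM in Ctrl and at 253.5, 251.8 and 270.5 CPM in E2. It fell furthest, with -0.81 ± 0.04 (adjusted p = 6.03e-12). Cct2 was at 705.0, 738.3 and 739.7 CPM in Ctrl and at 750.5, 760.8 and 750.2 CPM in E2, a log2 fold change of 0.05 ± 0.03 (adjusted p = 0.181). Cct7 gave 0.01 ± 0.03 (adjusted p = 0.691), and -0.08 (adjusted p = 0.026) with libraries scaled by size alone. Between these extremes, Cct8 fell with a log2 fold change of -0.64 ± 0.04, Cct3 with -0.54 ± 0.03, Cct4 with -0.43 ± 0.04 and Cct5 with -0.33 ± 0.04. Tcp1, the subunit that the naming rule leaves out, fell with a log2 fold change of -0.33 ± 0.03 (adjusted p = 5.62e-08). Over the 8 subunits the highest TPM in a library was 1.78 to 1.86 times the lowest in Ctrl and 3.09 to 3.37 times in E2, and Cct6a was the lowest in all 12 libraries. The TPM ratio of Cct2 to Cct6a was 1.79 ± 0.03 in Ctrl and 3.25 ± 0.14 in E2 (SD, n = 3). Cct6a overlaps Psph, Cct7 overlaps Pradc1 and Cct8 overlaps Usp16 on the other strand in the annotation. Outside the ring, such overlaps include Dnajc19 with Fxr1 and Dnaja3 with Coro7 on the other strand, and Dnaja3 with Vasn on the same strand.

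**Figure D3:**
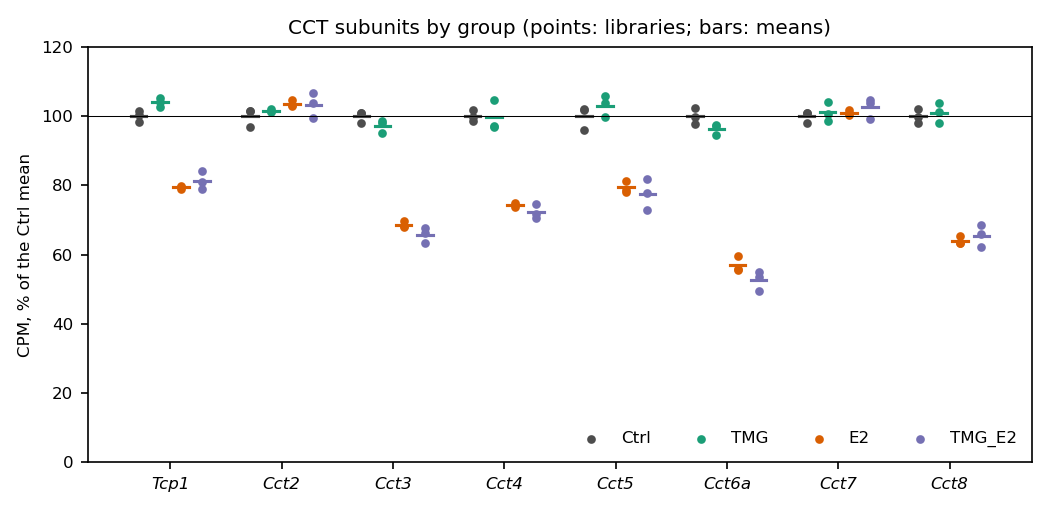
CPM of Tcp1 and the 7 tested CCT subunits in each library as a percent of that gene's Ctrl mean, by group, with bars for group means. Cct2 and Cct7 stay near the line at 100 in all groups, Cct6a is lowest in both groups with E2, and the TMG libraries lie close to Ctrl.

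In the DNAJB family rises prevailed. Of 8 tested members, 7 rose and 1, Dnajb11, fell, beside 41.5% and 41.2% of all genes, and without Dnajb4 6 of 7 rose. Dnajb2 (chromosome 1, 75236395 to 75245692), a J protein that binds ubiquitin and hands clients to the proteasome, was at 18.64, 17.46 and 17.30 CPM in Ctrl and at 94.12, 101.0 and 93.35 CPM in E2. This 5.4-fold rise (log2 fold change 2.43 ± 0.05, adjusted p = 2.35e-17) was the largest among the 53 genes and the only rise of at least 2-fold. In TPM, Dnajb2 went from 12.2 ± 0.60 to 59.4 ± 2.41, still below Dnajb6 at 79.6 ± 2.70 in E2. Dnajb14 (0.80 ± 0.08, adjusted p = 4.12e-08) and Dnajb12 (0.74 ± 0.07, adjusted p = 6.5e-08), both anchored in the membrane of the endoplasmic reticulum, rose from low levels. Dnajb4, a cytosolic partner of Hsp70, went from 9.43 ± 1.24 to 16.4 ± 0.25 CPM, which is given as a description because the filter took the gene only through libraries with E2. Dnajb1, the heat shock inducible J protein, rose by 0.23 ± 0.05 (adjusted p = 0.000306), from 60.9 ± 1.36 to 71.6 ± 1.84 CPM.

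Dnajb6, a J protein known for holding back protein aggregation, is the member with a triplet that rose, from 90.2 ± 1.75 to 104 ± 1.84 CPM (0.20 ± 0.04, adjusted p = 7.63e-05). Its triplet is printed for comparison with that of Hspd1 and Hspe1, with 30 bases of the plus strand at chr5:29735844-29735873 and the triplet in capitals.
Dnajb6: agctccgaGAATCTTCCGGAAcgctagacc
It lies upstream of the start of the gene as annotated in RefSeq, at 29735898.

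Among the DNAJA and DNAJC genes the changes went both ways. Of the 3 DNAJA genes, Dnaja1, a farnesylated cytosolic partner of Hsp70, rose from 290 ± 4.04 to 361 ± 5.55 CPM (0.32 ± 0.05, adjusted p = 5.1e-06), and its close relative Dnaja2 fell from 210 ± 1.04 to 152 ± 0.93 CPM (-0.46 ± 0.04, adjusted p = 1.77e-09). Dnaja3, the mitochondrial member, fell with a log2 fold change of -0.25 ± 0.04 (adjusted p = 2.04e-05). Of 20 DNAJC genes, 11 (55%) rose, 5 (25%) fell and 4 did not pass the test, beside 41.5% of all genes higher and 41.2% lower. Dnajc2 (chromosome 5, 21757266 to 21785264), which sits at the ribosome exit with Hspa14, was at 165.4, 167.9 and 167.7 CPM in Ctrl and at 76.68, 76.09 and 80.51 CPM in E2. It fell 2.15-fold (log2 fold change -1.10 ± 0.04, adjusted p = 8.54e-14), while its partner Hspa14 did not pass the test. Dnajc15, of the mitochondrial inner membrane, rose from 19.7 ± 0.41 to 38.4 ± 2.04 CPM (0.96 ± 0.06, adjusted p = 1.18e-10), and Dnajc16 rose from 28.0 ± 0.24 to 46.1 ± 1.48 CPM (0.72 ± 0.05, adjusted p = 3.95e-10). Of the 2 genes taken only by name, Hspbap1 went from 34.0 ± 1.12 to 12.6 ± 0.94 CPM, the deepest fall of the 53 (-1.43 ± 0.07, adjusted p = 1.28e-12). Hspbp1, an exchange factor for Hsp70, fell with a log2 fold change of -0.45 ± 0.07 (adjusted p = 9.29e-06).

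By compartment, the 8 tested mitochondrial members divided into 3 that rose and 5 that fell with E2, and the 9 of the endoplasmic reticulum into 4 and 4. Over all genes 41.5% rose and 41.2% fell. The endoplasmic reticulum members, at 44.4% each way, were near these shares. The mitochondrial ones were at 37.5% higher and 62.5% lower, from only 8 genes, and a difference between compartments was not tested. Hsp90b1 and Dnajc3, a cochaperone of the endoplasmic reticulum, were the only matched chaperone genes with an ER stress element (CCAAT and CCACG with 9 bases of any kind between them) near the start on either strand. This element was found in 0.119% of all windows. The stretches are shown because the 2 genes carry the same element and moved in opposite directions, Dnajc3 by 0.40 ± 0.04 (adjusted p = 5.18e-08) and Hsp90b1 by the fall given above. For Hsp90b1 the minus strand of chr10:86705533-86705656 with its 2 copies is printed, 1 copy in each orientation, and for Dnajc3 the plus strand of chr14:118937822-118937851. Capitals mark the elements.
Hsp90b1: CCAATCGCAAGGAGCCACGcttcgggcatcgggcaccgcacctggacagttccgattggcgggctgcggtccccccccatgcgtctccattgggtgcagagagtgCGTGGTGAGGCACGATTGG
Dnajc3: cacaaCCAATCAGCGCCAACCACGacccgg
The other genes of the endoplasmic reticulum, a list of 15 cochaperones and folding enzymes of which 13 were tested, gave 1 that rose and 11 that fell with E2, with a median of -0.49. Calr, a lectin chaperone, fell with a log2 fold change of -1.32 ± 0.05 (adjusted p = 6.87e-14) and Pdia4, a disulfide isomerase, with -1.28 ± 0.05 (adjusted p = 2.4e-13).

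The partners of the cytosolic and mitochondrial members were counted from lists in the same way, beside 41.5% of all genes higher and 41.2% lower with E2. Of 25 cochaperones of Hsp70 and Hsp90, 4 rose and 16 fell with E2, with a median of -0.23. Ppid (-0.97 ± 0.04, adjusted p = 7.49e-13) and Fkbp4 (-0.80 ± 0.04, adjusted p = 3.42e-12), both Hsp90-binding isomerases, fell most clearly, whereas Stip1, which links Hsp70 to Hsp90, fell with a log2 fold change of -0.15 ± 0.03 (adjusted p = 0.00047). Of 10 CCT partners 3 rose and 4 fell, among them Txndc9, a CCT-binding regulator, which rose by 0.69 ± 0.04 (adjusted p = 2.81e-11). Of 14 mitochondrial partners 6 rose and 7 fell, and the counts of these last 2 lists are near the background. The mitochondrial ones with the smallest p were Trap1, the mitochondrial Hsp90, at -0.99 ± 0.04 (adjusted p = 4.78e-14) and Tomm70a, an import receptor, at -0.77 ± 0.03 (adjusted p = 1.8e-13). Hsf1, the main activator of heat shock genes, fell with a log2 fold change of -0.41 ± 0.06 (adjusted p = 2.25e-06), and Hsbp1, its binding protein, rose by 0.15 ± 0.06 (adjusted p = 0.0225). In TMG_E2 against TMG, Hsbp1 was not called, at 43.3 ± 3.15 CPM in TMG_E2 and 42.4 ± 1.01 CPM in TMG. Hsf2 did not pass the filter. Of 14 members listed as heat shock inducible, 10 were tested, and 3 of them rose and 7 fell, or 2 and 7 without Dnajb4. These 7 include Hsp90ab1 beside Hsp90aa1, the stress-responsive isoform.

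The weakest calls in E2 against Ctrl depended on single libraries or on the scaling and tool. Of the 46 calls, 40 held in all 13 alternative settings. Dnajc11 (0.10 ± 0.05, adjusted p = 0.0448) lost its call without Ctrl library 1, 2 or 3 or E2 library 3 (adjusted p = 0.144, 0.0663, 0.0599 and 0.262). It also lost it with RLE size factors, with library size alone, without the filter and in DESeq2 (adjusted p = 0.0507, 0.9, 0.0504 and 0.052). Dnajc21 lost it without Ctrl library 1 or 3 or E2 library 2 (0.111, 0.106 and 0.15 as adjusted p). Dnajc19 lost it without Ctrl library 2 or E2 library 1 or 2 (adjusted p = 0.119, 0.0937 and 0.0569), and Dnajc30 without Ctrl library 3 (adjusted p = 0.0579). With scaling by library size alone, Dnajc21, Dnajc30, Dnajc9 and Dnajc13 were not called (adjusted p = 0.379, 0.0983, 0.174 and 0.122). Dnajc18 (adjusted p = 0.162) was called lower only without Ctrl library 3 (adjusted p = 0.0357) or with scaling by library size.

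With TMG alone, 0 of the 53 chaperone genes passed the threshold, beside 5.15% of all genes (3.01% higher and 2.14% lower). The log2 fold changes ran from -0.22 to 0.15, and 4 genes had an unadjusted edgeR p under 0.05. DESeq2 called 0 as well, with 5 genes at an unadjusted p under 0.05. The smallest adjusted p was 0.18, for Dnajc10, a disulfide reductase of the endoplasmic reticulum (-0.11 ± 0.04). The other 3 were Dnaja3 (-0.10 ± 0.04, adjusted p = 0.185), Dnajb9 (-0.22 ± 0.10, adjusted p = 0.212) and Dnajc7 (0.10 ± 0.05, adjusted p = 0.236). For the abundant members the estimates were narrow, with Hsp90aa1 at 0.0003 ± 0.0387, Hspa8 at -0.04 ± 0.04 and Hspd1 at -0.06 ± 0.04 (SE). Among 64 tested partner genes, Fkbp5, an Hsp90 cochaperone, fell with a log2 fold change of -0.19 ± 0.04 (adjusted p = 0.021) and Txndc9 rose by 0.18 ± 0.04 (adjusted p = 0.0178).

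In cells given E2, adding TMG lowered 6 chaperone genes and raised 1. These counts compare with 7.14% of all genes lower and 5.61% higher, or 12.8% in either direction, so the share of 13.2% of the 53 is near the background. The 7 log2 fold changes lay between -0.33 and 0.14. Hspe1 was at 360.8, 368.4 and 357.8 CPM in E2 and at 308.0, 308.1 and 333.2 CPM in TMG_E2. All TMG_E2 libraries were below all E2 libraries, and the log2 fold change was -0.20 ± 0.04 (edgeR adjusted p = 0.00278). Hsph1 was at 350.9, 332.0 and 334.8 CPM in E2 and at 309.0, 292.6 and 298.5 CPM in TMG_E2, again without overlap (-0.18 ± 0.03, adjusted p = 0.00341). Groups without overlap were found for 18 of the 53 genes and 28.5% of all genes tested in this comparison. Hspd1 was at 816.0, 811.1 and 832.8 CPM in E2 and at 753.4, 691.7 and 762.9 CPM in TMG_E2 (-0.16 ± 0.04, adjusted p = 0.0144). Both genes that share the stretch printed above fell with TMG, by similar amounts. Their TPM ratio was 0.620 ± 0.016 in E2 and 0.638 ± 0.028 in TMG_E2. Whether the stretch has a part in this was not tested. Hsp90ab1 was at 2629, 2619 and 2584 CPM in E2 and at 2319, 2332 and 2418 CPM in TMG_E2 (-0.15 ± 0.03, adjusted p = 0.0104), whereas Hsp90aa1 was at 2209 ± 21.1 and 2184 ± 94.1 CPM and did not pass the test.

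**Figure D4:**
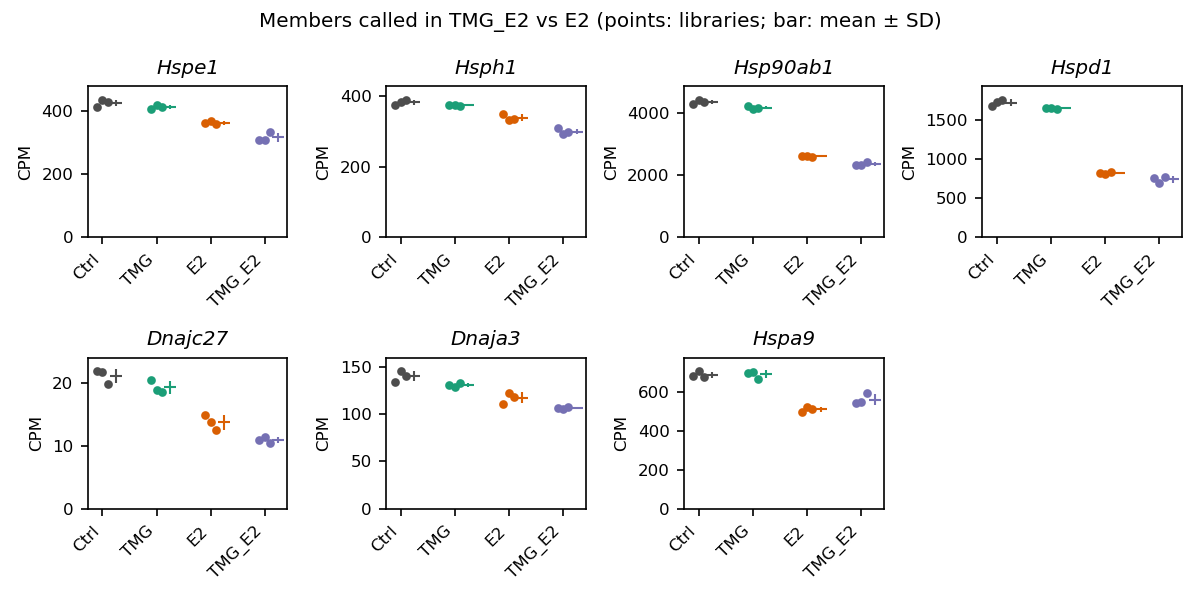
CPM of the 7 chaperone genes called in TMG_E2 against E2, with a point per library, group means with SD beside them and every axis starting at 0. In mean CPM the step between Ctrl and E2 exceeds that between E2 and TMG_E2 for all 7 genes, only narrowly for Hsph1. Hspa9 is the gene for which TMG_E2 lies above E2.

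The remaining calls were Dnajc27, Dnaja3 and Hspa9. Dnajc27, a Rab-like GTPase with a J domain, was at 14.96, 13.88 and 12.53 CPM in E2 and at 10.88, 11.50 and 10.54 CPM in TMG_E2, the largest of these changes (-0.33 ± 0.08, adjusted p = 0.0167). Dnaja3 was at 111.2, 122.9 and 118.8 CPM in E2 and at 106.4, 105.3 and 107.6 CPM in TMG_E2 (-0.15 ± 0.04, adjusted p = 0.0302). Hspa9 was at 496.9, 520.7 and 512.4 CPM in E2 and at 542.3, 546.5 and 591.9 CPM in TMG_E2 (0.14 ± 0.04, adjusted p = 0.0336). In each of the 3 the groups did not overlap, beside 28.5% of all genes tested. Of the 8 tested mitochondrial members, Hspa9 rose, Hspd1, Hspe1 and Dnaja3 fell and 4 were not called, beside 5.61% of all genes higher and 7.14% lower. By sign alone, 3 of the 8 lay above 0 and 5 below. Hspe1 and Hsph1 kept their calls in all 13 alternatives. Without E2 library 1, Dnajc27 and Hspa9 were not called (adjusted p = 0.0792 and 0.111). Without E2 library 2, Dnaja3, Dnajc27 and Hspa9 were not called (0.132, 0.0507 and 0.0636 as adjusted p), and without E2 library 3, Dnaja3, Hspa9 and Hspd1 were not (adjusted p = 0.0969, 0.0852 and 0.0644). Omission of TMG_E2 library 2 ended the call of Dnaja3 (adjusted p = 0.0739) and added Dnajc8 as higher (0.17, adjusted p = 0.0177). Omission of TMG_E2 library 1 added Dnajc18 as lower (adjusted p = 0.0485), and omission of TMG_E2 library 3 ended that of Hspa9 (adjusted p = 0.087) and added Cct6a as lower (-0.15, adjusted p = 0.0285) and Dnajc13 as higher (0.12, adjusted p = 0.0348). Fitted on the 6 libraries of these groups alone, only Hspe1, Hsph1 and Dnajc27 were called. With the replicate numbers as a block, Cct6a (adjusted p = 0.046) and Dnajc18 (adjusted p = 0.0459) were called lower in addition.

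Among the partners, Hyou1, a large Hsp70 of the endoplasmic reticulum, fell with a log2 fold change of -0.28 ± 0.05 with TMG in cells given E2 (adjusted p = 0.00144) and Ppid with -0.18 ± 0.04 (adjusted p = 0.0144). Txndc9 rose by 0.21 ± 0.04 (adjusted p = 0.00223). Hsf1 gave -0.02 ± 0.06 (adjusted p = 0.851). Of the 10 tested members listed as heat shock inducible, 4 fell and 0 rose, beside 7.14% and 5.61% of all genes, with a median of -0.06. The 4 include Hsp90ab1, whereas Hsp90aa1, the stress-responsive isoform, gave -0.02 ± 0.04 (adjusted p = 0.833). Of these 4 calls, those of Hspe1 and Hsph1 held in all 13 alternatives, that of Hspd1 in 11 and that of Hsp90ab1 in 12.

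Whether TMG acted differently with and without E2 was tested as an interaction. No chaperone gene was called, beside 0.931% of all genes (0.266% higher and 0.665% lower), and 6 had an unadjusted edgeR p under 0.05. DESeq2 called 0, with 5 at an unadjusted p under 0.05. The smallest adjusted p was 0.209, for Hsph1 (-0.15 ± 0.05), followed by Hspe1 (-0.15 ± 0.05, adjusted p = 0.217). Without TMG_E2 library 3 Hspe1 was called (-0.19, adjusted p = 0.0346). For Hspa9 the interaction was 0.13 ± 0.06 (adjusted p = 0.38) and for Hsp90ab1 it was -0.09 ± 0.05 (adjusted p = 0.564). A difference between the TMG effects with and without E2 is therefore not shown for any of the 7 genes called.

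**Figure D5:**
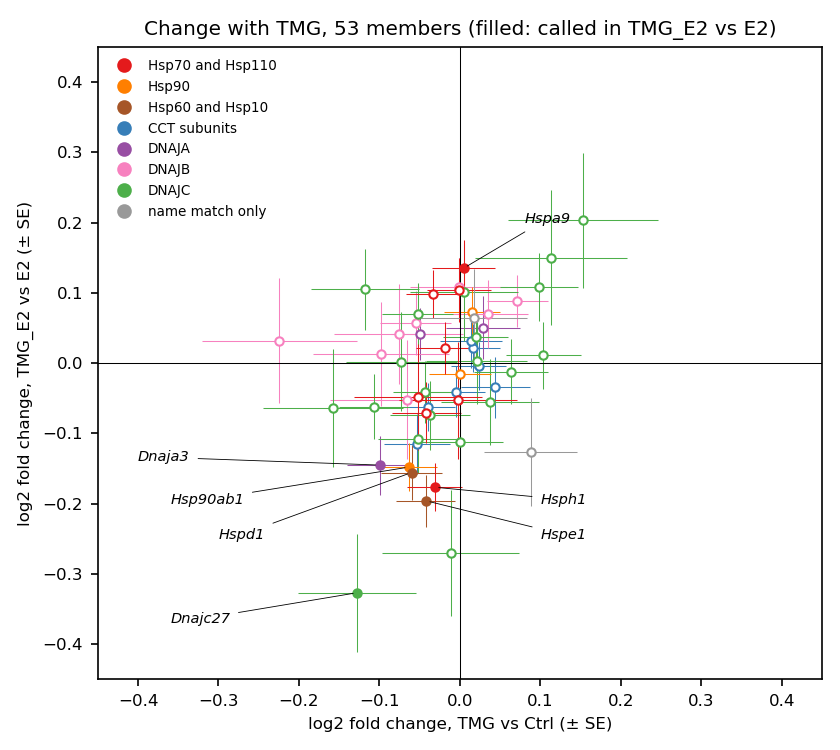
Log2 fold change of the 53 genes in TMG against Ctrl (x axis) and in TMG_E2 against E2 (y axis), with the SE as bars, coloured by family, with filled points for the 7 genes called in TMG_E2 against E2. All changes lie within 0.35 of 0 on both axes, and the 6 filled points below 0 on the y axis lie below 0 on the x axis as well. On the x axis 31 of all 53 genes lie below 0, and 0 were called.

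E2 gave similar counts with TMG present. In TMG_E2 against TMG, 19 of the 53 genes rose (18 of 52 without Dnajb4) and 25 fell, beside 40.9% and 41.8% of all genes, or 82.7% in either direction. Across this and E2 against Ctrl, which share no library, 18 genes rose in both, 24 fell in both and 0 moved in opposite directions. With 82.7% of all genes called in each comparison, most genes of any set would be called in both. The share of all genes that moved alike in the 2 comparisons was not counted. Cct2, Cct7, Dnajc1, Dnajc17 and Dnajc24 were called in neither, although Cct2 (-0.08, adjusted p = 0.038) and Cct7 (-0.08, adjusted p = 0.0348) were called lower in TMG_E2 against TMG with scaling by library size alone. Dnajb2 was at 18.59, 17.51 and 17.14 CPM in TMG and at 101.5, 106.1 and 103.4 CPM in TMG_E2 (2.54 ± 0.05, adjusted p = 1.87e-17). Dnajc15 rose by 1.18 ± 0.06 and Dnajb9, which binds misfolded proteins in the endoplasmic reticulum, by 0.69 ± 0.09 (adjusted p = 8.38e-12 and 2.61e-06). Hspbap1 fell with a log2 fold change of -1.64 ± 0.07, Hspd1 with -1.16 ± 0.04, Dnajc2 with -1.10 ± 0.04, Cct6a with -0.87 ± 0.04, Hsp90ab1 with -0.82 ± 0.04 and Dnajc27 with -0.82 ± 0.08. The CCT ring again spread out, with a ratio of the highest to the lowest subunit in TPM of 1.88 to 1.99 in TMG and 3.46 to 3.60 in TMG_E2. Hspa14 (0.08 ± 0.03, adjusted p = 0.0468) and Dnajc9, a histone chaperone, had the weakest calls: Hspa14 was not called without TMG library 1, 2 or 3 (adjusted p = 0.0657, 0.0699 and 0.13) or TMG_E2 library 2 or 3 (0.058 and 0.0952 as adjusted p) and changed sign with scaling by library size alone (-0.02, adjusted p = 0.549), and Dnajc9 was not called without TMG_E2 library 1 or TMG library 3 (adjusted p = 0.103 and 0.095). Without TMG_E2 library 3, Dnajc19 was called lower (adjusted p = 0.0168).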

How the data were processed

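Per the labels, RNA from 12 libraries was made into stranded poly(A) libraries and sequenced as read pairs. Per the series design text and the submitters' processing notes, the authors used FastQC 0.11.2, RSEM 1.2.22 (Bowtie2 is also named) on GRCm38, and edgeR 3.14.0 in R 3.2.2. No source used here gives the transcript annotation or strand setting. Per the file headers, the deposited files hold expected counts (RSEM estimates, which divide reads that match several genes), TPM and FPKM. The deposited TPM served for levels between genes and the deposited FPKM was not used. Since TPM is a share, it also moves with other transcripts. Pseudogene copies make the division of reads uncertain for Hspa8, Hspd1, Hspe1 and the Hsp90 genes.

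Expected counts were rounded and tested with edgeR 4.0.16 in R 4.3.3. The filter of the design text (CPM above 10 in 2 or more libraries) kept 8273 genes. All 12 libraries entered 1 quasi-likelihood fit with TMM scaling and a mean per group. In each of 5 comparisons p-values were adjusted over all 8273 genes (Benjamini-Hochberg, threshold 0.05), and the SE was computed from the F statistic. Alternatives included DESeq2 1.42.0, other scalings and filters, a replicate block and leaving out each library.

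The members and lists were chosen with earlier results of these data known. The genes named are the 6 highest and 6 lowest called members without overlap for the comparisons with E2, those called for the TMG comparisons, a set of core members, in each partner list the genes with the smallest p, and always Tcp1, Hsf1, Hsf2 and Stip1. Hspb2, Hspb7, Hspb8, Hspb11, Hspa2, Hspa14, Dnaja2, Dnajb6, Dnajb11, Dnajc3, Dnajc7, Dnajc10, Hspbp1 and the genes named for a weak, lost or added call fall outside this rule and were chosen after their values were seen. Promoter sequences and positions come from RefSeq on GRCm38. Replicate numbers were taken to pair the libraries where each same-numbered pair had deviations from the group means correlated over 0.1: E2 against Ctrl (0.108, 0.278 and 0.112), TMG_E2 against E2 (0.285, 0.182 and 0.201) and TMG_E2 against TMG (0.525, 0.149 and 0.412), but not TMG against Ctrl (0.088, 0.03 and 0.188). The labels state no shared day, and the reported p-values come from the fit without this pairing. The replicate block was run only as an alternative. No replicate pair agreed within sampling noise.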

Additional observations from a re-analysis of the deposited data

How the results depend on the processing

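The counts in E2 against Ctrl, TMG against Ctrl and TMG_E2 against TMG stayed within 1.5 times the reported ones under all alternatives run. In TMG_E2 against E2 the 1 higher gene became 2 with RLE size factors and 2 with DESeq2 (Hspa14 added in both), which moved the split to 2 higher and 6 lower, 0 with the fit of only the groups compared, and 0 to 2 when a library was left out. The 6 lower genes became 3 with only the groups compared and 4 to 7 when a library was left out. In the interaction 0 to 1 genes were lower when a library was left out. With library size alone as the scaling, Cct7 in E2 against Ctrl was -0.0833 (adjusted p = 0.026), Cct2 in TMG_E2 against TMG was -0.075 and Cct7 there -0.0784, each on the other side of 0 from the reported value, and Hspa14 there lost its call at -0.0221 (adjusted p = 0.549); this scaling moved the median of all genes by -0.10 and -0.11. With the replicate block the counts were 20 higher and 26 lower in E2 against Ctrl, 19 and 25 in TMG_E2 against TMG, 0 in TMG against Ctrl and in the interaction, and 1 higher and 8 lower in TMG_E2 against E2. The block changed no other call count.

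Without the filter on low values, Hspb6, Hspb11, Dnajb13, Dnajc4 and Cct6b were also called higher and Dnajc12 and Dnajc25 lower in E2 against Ctrl, all under 10 CPM except 1 library of Hspb11 and chosen after seeing their values. In TMG_E2 against E2 it added Dnajc12, at 1.06 ± 0.18 and 0.49 ± 0.26 CPM (-1.12, adjusted p = 0.0174), and Hspa1l, at 4.28 ± 0.41 and 3.06 ± 0.42 CPM (-0.46, adjusted p = 0.0478), both lower. In TMG_E2 against TMG it added Dnajb13, Dnajc4 and Hspb6 as higher and Dnajc12, Dnajc25 and Hspa1l as lower. Depth limited the low members: 3 counts were 0.133 to 0.180 CPM. The cause of these shifts was not tested.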
